A study of Mus musculus with 6 samples.

Results

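The genes described here are 41 mouse genes that act in G2 and mitosis, chosen by name for their known roles and read array by array in hepatocytes sorted by DNA content. Of the 41, 36 had a probe set, the group of short probes that measures a transcript, whose annotation gave that gene symbol alone. Where a gene had several, the brightest on average stood for it. Of these 36, 35 passed the filter on dim genes and were tested, among 9295 genes tested of 12393 with a probe set. Ccnb1, Cenpi, Spc24, Kif15 and Espl1 had no such probe set in the annotation used and were not analysed here, and Cdc25b lay below the filter.

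Primary hepatocytes were taken from the livers of wild-type C57BL/6 mice aged 3 weeks, stained when fresh with the DNA dye Hoechst 33342 and sorted by flow cytometry into a tetraploid and a diploid fraction. Each fraction was represented by 3 Affymetrix arrays of total RNA extracted right after the sort, and no allele, treatment or agent set the fractions apart. The replicates are labelled biological without naming animals, so a p-value here weighs a difference against the spread of these samples only, and that spread may be partly technical. A sort by DNA content also places a diploid cell that has copied its DNA with the tetraploid cells, so the tetraploid fraction may hold cells in G2 or mitosis of a diploid cycle.

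A cell enters mitosis when cyclin B and the kinase Cdk1, released from inhibition by Cdc25 phosphatases, phosphorylate many proteins. Kinesins and microtubule-binding proteins then build the spindle, kinetochores attach it to the centromeres, and the spindle checkpoint holds back the anaphase-promoting complex until every chromosome is attached. Transcripts of these proteins rise together late in the cell cycle under Foxm1, B-Myb and the MuvB complex, and in the growing liver hepatocytes that enter mitosis without dividing become polyploid.

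The arrays were alike over the whole table, with Pearson correlations across probe sets between 0.992 and 0.997 and array medians between 86.4 and 89.2 on the linear intensity scale. Markers of the labelled cell type were bright: Alb, Ttr, Apoa1 and the transcription factor gene Hnf4a had mean log2 intensities of 15.57, 15.44, 15.39 and 12.67. By limma with Benjamini-Hochberg adjustment, 0 of 9295 genes differed between the fractions at an adjusted p of 0.05, and 574 had an unadjusted p under 0.05. For the G2 and mitosis genes 4 arrays stood apart from the other members of their fraction, tetraploid replicates 2 and 3 and diploid replicates 2 and 3, so the array values come first below.

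The G2 and mitosis genes varied together from array to array within each fraction. In the tetraploid fraction, replicate 2 was above the mean of its fraction for 32 of 35 genes, replicate 1 for 20 and replicate 3 for 1. In the diploid fraction, replicate 3 was above the mean of its fraction for 32 of 35 genes, replicate 1 for 21 and replicate 2 for 0. Over all genes tested these shares lay between 45.9% and 56.5% on every array.

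The score of an array, defined as the average over the 35 genes of how far each log2 value lay from its own 6-array mean, was 0.02, 0.25 and -0.28 on tetraploid replicates 1 to 3 and 0.02, -0.27 and 0.26 on diploid replicates 1 to 3. Each fraction thus held a high, a middle and a low array, and the fractions covered the same range. The SD of the score over 3 arrays was 0.265 in the tetraploid and 0.265 in the diploid fraction. The difference of the score, tetraploid minus diploid, was -0.001 ± 0.22 (SE, n = 3 per fraction), with a 95% interval from -0.60 to 0.60. In bulk RNA a lower level on an array cannot be told apart into fewer cells in G2 or mitosis and less transcript in each.

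**Figure D1:**
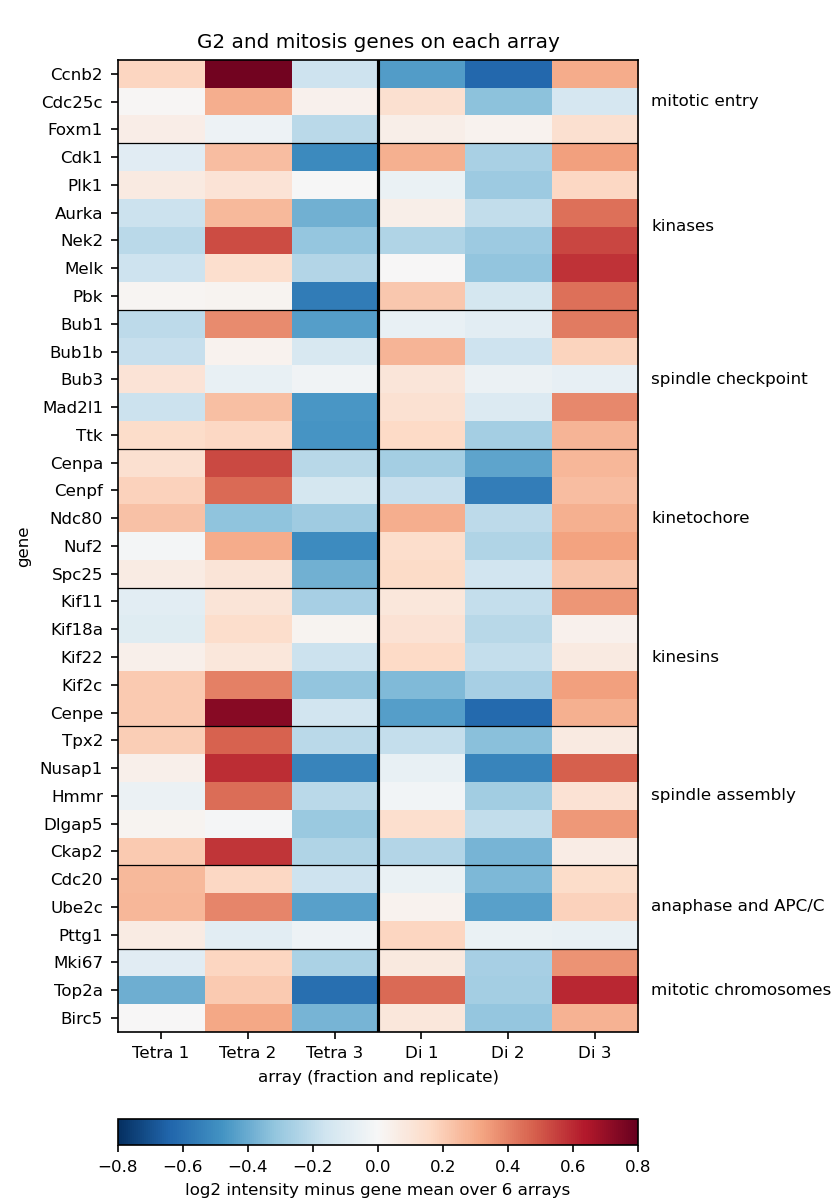
Log2 intensity of each of the 35 tested genes on each array, centred on its own 6-array mean, shown as colour (red higher, blue lower). Rows are genes grouped by role, and columns are the 3 tetraploid and then the 3 diploid arrays. Tetraploid replicate 2 and diploid replicate 3 are red for most genes, and tetraploid replicate 3 and diploid replicate 2 are blue for most genes.

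Between tetraploid replicates 2 and 3 the median difference of the 35 genes was 0.64 on the log2 scale, and 32 genes were higher on replicate 2. Between diploid replicates 2 and 3 the median difference, replicate 2 minus replicate 3, was -0.54, and 33 genes were lower on replicate 2. In each of these pairs 20 of 35 genes differed by over 0.5, against 3.74% of all genes tested in the tetraploid and 3.07% in the diploid pair. The other pairs were closer, with medians of -0.27 and 0.31 for tetraploid replicate 1 against replicates 2 and 3, and 0.31 and -0.21 for diploid replicate 1 against replicates 2 and 3.

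For 26 of 35 genes the tetraploid arrays stood in the order replicate 3, 1, 2 from low to high, an order that 13.8% of all genes tested showed. For 27 of 35 genes the diploid arrays stood in the order replicate 2, 1, 3, shown by 13.4% of all genes. Both orders together were held by 24 of 35 genes, among them Ccnb2, Cdk1, Plk1, Aurka, Nek2, Bub1, Cenpa, Nusap1, Mki67 and Top2a, and by 4.02% of all genes tested. These orders were picked out after the values were seen and are given as a description.

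The spread between arrays of a fraction was wide for these genes relative to other genes. The median within-fraction SD, pooled over both fractions, was 0.31 for the 35 genes and 0.12 for all genes tested. A total of 25 of the 35 lay among the 10.0% of genes with the widest spread, and 3 lay below the median of all genes. A wide spread was not particular to these genes. For 30 tested genes of S phase and replication, described below, the median was 0.25, and 18 of the 30 lay among those 10.0%. Nusap1, Ccnb2, Cenpe, Nek2 and Top2a had the widest spread among the members, with pooled SDs of 0.53, 0.48, 0.46, 0.46 and 0.45. Bub3, Foxm1 and Pttg1 had the narrowest, at 0.09, 0.11 and 0.11.

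**Figure D2:**
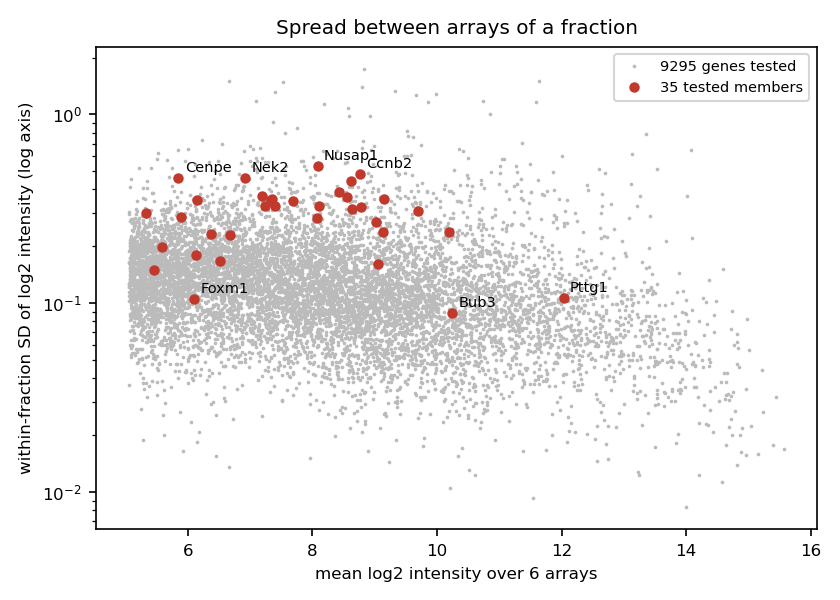
Within-fraction SD of log2 intensity, pooled over both fractions (y, log axis), against the mean log2 intensity over 6 arrays (x) for all genes tested (grey) and the 35 tested members (red). Most members lie in the upper part of the cloud, and Bub3, Foxm1 and Pttg1 lie within its middle.

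Against this spread, none of the G2 and mitosis genes passed the test between the fractions. The test took the samples as unpaired, so any variation that a tetraploid and a diploid sample share counted as error. Over all genes, deviations of tetraploid replicate 2 from its fraction mean correlated best with those of diploid replicate 3 (0.69). Those of tetraploid replicate 3 correlated best with those of diploid replicate 2 (0.38), and no crossed pairing was fitted. By limma, 0 of 35 passed an adjusted p of 0.05 over all genes tested, where the share over all genes was 0%, and the smallest adjusted p was 0.836. At an unadjusted p under 0.05 there were 0 of 35 higher and 0 of 35 lower in tetraploid cells, against 2.32% and 3.85% of all genes. The tetraploid and diploid arrays overlapped for all 35 genes, while 5.22% of all genes lay wholly higher and 7.08% wholly lower in tetraploid cells. On average 15 genes were higher and 20 lower in tetraploid cells, with a median log2 difference of -0.04, against -0.006 over all genes tested. With an array left out, 1 to 7 members had fractions that did not overlap, the most without diploid replicate 2 (7), beside 19.2% to 24.1% of all genes, and 1 to 4 had an unadjusted p under 0.05, beside 4.07% to 6.87% of all genes.

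A log2 difference over 0.25 in either direction was measured for 9 of 35 genes, 6 higher and 3 lower, against 6.33% of all genes. The shares are not alike in kind, since the median within-fraction SD was 0.31 for the members and 0.12 for all genes. Means of 3 arrays pass such a cutoff more readily where the spread is wider. The 95% intervals reached 1.21 for Ccnb2 and -1.17 for Top2a, so differences of more than 2-fold in these genes lie inside them.

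**Figure D3:**
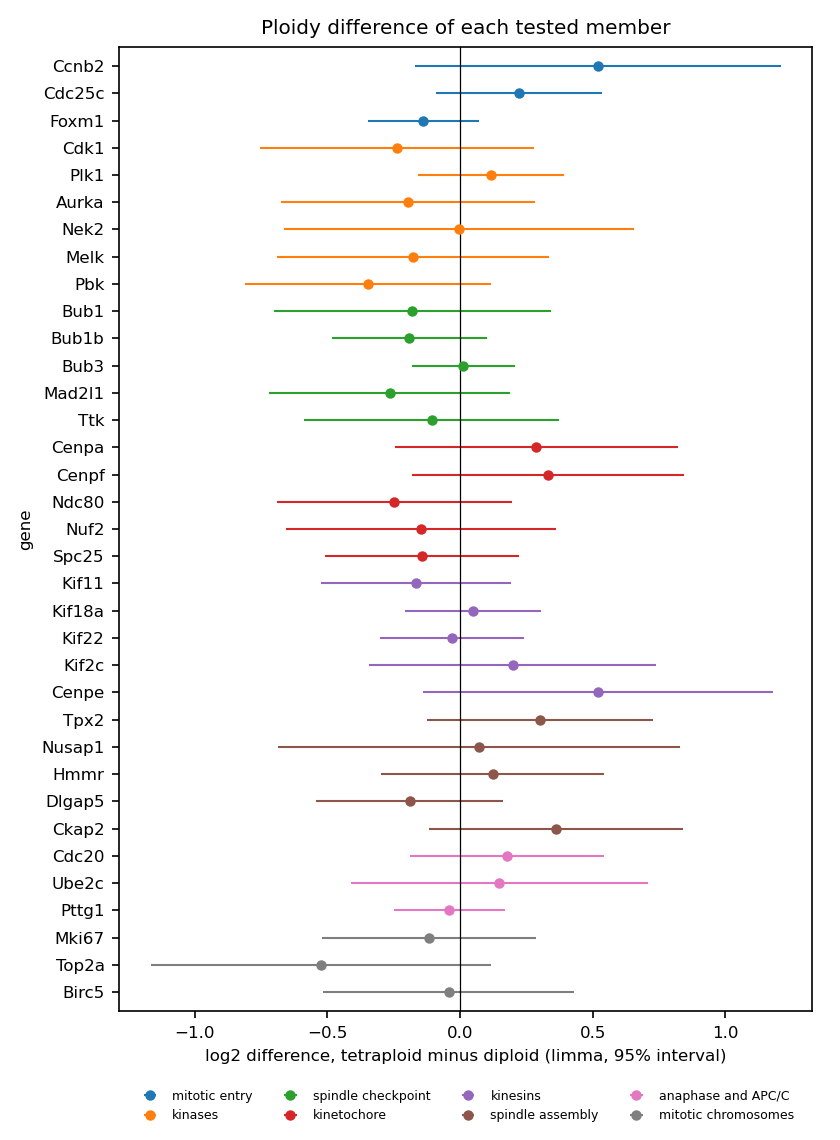
Log2 difference of each tested gene, tetraploid minus diploid, with its 95% interval from limma (n = 3 arrays per fraction), coloured by role. Points right of the line were higher in tetraploid cells, and the interval of each of the 35 genes spans 0.

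Among the genes of entry into mitosis, Ccnb2, which encodes a B-type cyclin that activates Cdk1, had log2 intensities of 8.93, 9.53 and 8.59 on tetraploid replicates 1 to 3, against 8.31, 8.13 and 9.05 on diploid replicates 1 to 3. The tetraploid values lay above diploid replicates 1 and 2, and diploid replicate 3 stood inside the tetraploid range. The difference was 0.52 ± 0.30 (SE), or 1.43-fold, with an adjusted p of 0.843 by limma, and it was 0.80 without diploid replicate 3 and 0.26 without tetraploid replicate 2. Cdc25c, a phosphatase that removes the inhibitory phosphates of Cdk1, differed by 0.22 ± 0.13. Cdc25b, another phosphatase of that family, had 4.96, 4.85 and 4.82 on the tetraploid arrays and 4.59, 4.71 and 4.58 on the diploid arrays. Its fractions did not overlap, but all values lay under the filter at 5.06, where differences are compressed, and it was not tested. Foxm1, which encodes a transcription factor of late cell cycle genes, had 6.16, 6.06 and 5.88 on tetraploid replicates 1 to 3, against 6.15, 6.13 and 6.23 on diploid replicates 1 to 3, and differed by -0.14 ± 0.09. Of the other 3 probe sets for Foxm1, those above the filter differed by 0.09 and -0.10.

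Of the 6 kinases, 5 had a lower mean in tetraploid cells, with a median of -0.19. Cdk1, the kinase that drives mitosis, had 9.05, 9.40 and 8.64 on tetraploid replicates 1 to 3, against 9.43, 8.89 and 9.48 on diploid replicates 1 to 3. The lowest value of both fractions belonged to tetraploid replicate 3, and the ranges overlapped, with a difference of -0.24 ± 0.22 (SE). Pbk, a mitotic kinase, had 8.65, 8.65 and 8.07 against 8.85, 8.49 and 9.07, and differed by -0.35 ± 0.20, with an adjusted p of 0.843 by limma. Diploid replicate 2 alone fell within the tetraploid range. Aurka, the kinase of centrosome maturation and spindle poles, differed by -0.20 ± 0.20 and Melk, a kinase of proliferating cells, by -0.18 ± 0.22. Plk1, the polo kinase of mitotic entry and spindle assembly, was the only kinase with a higher mean in tetraploid cells, at 0.12 ± 0.12. Nek2, which separates the centrosomes, had 6.70, 7.44 and 6.61 on tetraploid replicates 1 to 3, against 6.68, 6.63 and 7.46 on diploid replicates 1 to 3. Each fraction held 1 array well above its other arrays, at about the same height, and the difference was -0.003 ± 0.28.

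Of the 5 spindle checkpoint genes, 4 had a lower mean in tetraploid cells, with a median of -0.18. Mad2l1, whose product inhibits Cdc20 until chromosomes are attached, had 9.52, 9.94 and 9.23 on tetraploid replicates 1 to 3, against 9.81, 9.59 and 10.08 on diploid replicates 1 to 3. The ranges overlapped, and the difference was -0.27 ± 0.19 (SE). The kinase genes Bub1 and Ttk differed by -0.18 ± 0.22 and -0.11 ± 0.21, and Bub1b, which encodes the inhibitory partner BubR1, by -0.19 ± 0.13. Bub3, which docks Bub1 and BubR1 at the kinetochore, did not follow the common array order. It had 10.35, 10.18 and 10.21 against 10.33, 10.19 and 10.17, a range of 0.17 over all 6 arrays and a difference of 0.01 ± 0.08. A dimmer probe set for Bub3, at a mean of 6.79, differed by -0.19.

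The 5 tested kinetochore and centromere genes were divided, with 2 higher and 3 lower in tetraploid cells. Their median was -0.14, while the difference of their score was 0.02, of the opposite sign. Cenpa, the histone H3 variant that marks the centromere, had 8.67, 9.07 and 8.33 on tetraploid replicates 1 to 3, against 8.28, 8.13 and 8.81 on diploid replicates 1 to 3. Its difference was 0.29 ± 0.23 (SE). Cenpf, which joins the kinetochore in G2, had 7.52, 7.79 and 7.20 against 7.15, 6.78 and 7.58, a difference of 0.33 ± 0.22. For both genes the tetraploid values lay above diploid replicates 1 and 2 and on either side of diploid replicate 3. The subunits of the Ndc80 complex, which binds the microtubule, leaned the other way, with -0.25 ± 0.19 for Ndc80, -0.15 ± 0.22 for Nuf2 and -0.14 ± 0.16 for Spc25. Spc25 had 10.26, 10.29 and 9.80 on the tetraploid arrays and 10.34, 10.03 and 10.41 on the diploid arrays. Ndc80 departed from the common array order, with 5.56, 5.01 and 5.04 on the tetraploid arrays, close to the filter on dim genes.

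Among the kinesins, Cenpe, a motor that carries chromosomes to the spindle equator, had 6.06, 6.57 and 5.69 on tetraploid replicates 1 to 3, against 5.41, 5.23 and 6.13 on diploid replicates 1 to 3. Its difference was 0.52 ± 0.28 (SE), with an adjusted p of 0.839 by limma, and diploid replicate 3 lay within the tetraploid range. It was 0.79 without diploid replicate 3 and 0.29 without tetraploid replicate 2. Kif2c, which depolymerises microtubules at the centromere, had 7.40, 7.59 and 6.87 against 6.83, 6.92 and 7.51, a difference of 0.20 ± 0.23. Kif22, a chromosome-arm motor, had 9.10, 9.14 and 8.88 against 9.21, 8.87 and 9.13, a difference of -0.03 ± 0.12, with -0.20 and -0.15 from its dimmer probe sets. Kif11, which pushes the spindle poles apart, differed by -0.17 ± 0.15, and a second probe set of nearly the same brightness by 0.18, so its direction was not settled. Kif18a, which limits chromosome oscillation, differed by 0.05 ± 0.11.

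Of the 5 spindle assembly genes, 4 had a higher mean in tetraploid cells, with a median of 0.12. Nusap1, which bundles spindle microtubules, had the widest spread within the fractions, with 8.13, 8.68 and 7.56 on tetraploid replicates 1 to 3, against 8.03, 7.56 and 8.56 on diploid replicates 1 to 3. The highest and the lowest array of each fraction stood at nearly the same levels in the other fraction, and the difference was 0.07 ± 0.32 (SE). Ckap2, a microtubule-associated protein, had 8.31, 8.67 and 7.86 against 7.87, 7.73 and 8.16, a difference of 0.36 ± 0.20 with an adjusted p of 0.843 by limma. Tpx2, which activates Aurora A on the spindle, differed by 0.30 ± 0.18 and by -0.05 with a second probe set above the filter. Hmmr, a spindle pole protein, differed by 0.12 ± 0.18, and its 3 dimmer probe sets by 0.16, 0.20 and 0.18. Dlgap5, which stabilises spindle fibres, differed by -0.19 ± 0.15.

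Among the genes of anaphase, Cdc20, an activator of the anaphase-promoting complex, had 9.40, 9.30 and 8.97 on tetraploid replicates 1 to 3, against 9.08, 8.78 and 9.28 on diploid replicates 1 to 3. Its difference was 0.18 ± 0.16 (SE), and other probe sets gave 0.14 and -0.05. Ube2c, the ubiquitin-conjugating enzyme of that complex, differed by 0.15 ± 0.24 and followed the common array order. Pttg1, which encodes securin, the inhibitor of separase, did not follow it. Pttg1 had 12.10, 11.95 and 11.99 against 12.20, 11.98 and 11.98, a range of 0.25 and a difference of -0.04 ± 0.09. Its dimmer probe sets, at means of 9.52 and 6.32, differed by -0.05 and 0.06.

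Of the genes of mitotic chromosomes, Mki67, whose product coats them and marks proliferating cells, had 8.94, 9.20 and 8.77 on tetraploid replicates 1 to 3, against 9.11, 8.76 and 9.39 on diploid replicates 1 to 3. The tetraploid values lay inside the diploid range, with a difference of -0.12 ± 0.17 (SE) and a 95% interval from -0.52 to 0.29. Top2a, the topoisomerase that untangles sister chromatids, had 8.22, 8.82 and 8.01 against 9.06, 8.34 and 9.22. Its tetraploid values lay below diploid replicates 1 and 3, and diploid replicate 2 fell between them. The difference of -0.53 ± 0.27 had the smallest unadjusted p of the members, 0.0945 by limma, and an adjusted p of 0.836. It was -0.79 without diploid replicate 2 and -0.35 without either tetraploid or diploid replicate 3. Birc5, which encodes survivin of the chromosomal passenger complex, had 8.78, 9.09 and 8.40 against 8.87, 8.47 and 9.06, a difference of -0.04 ± 0.20.

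The sign of the difference held whichever array was left out for 21 of 35 genes. The share of all genes tested that keep their sign in this way was not counted, so 21 of 35 is a description only. With all arrays the interval of each of the 35 genes spanned 0, so a kept sign does not settle a direction. Of the 21, 10 had a higher mean in tetraploid cells: Ccnb2, Cdc25c, Plk1, Cenpa, Cenpf, Kif2c, Cenpe, Tpx2, Ckap2 and Cdc20. The other 11 had a lower mean: Foxm1, Cdk1, Aurka, Pbk, Bub1, Bub1b, Mad2l1, Ndc80, Kif11, Dlgap5 and Top2a. For Kif11, Foxm1, Tpx2 and Cdc20 this covers the brightest probe set, since another above the filter gave the opposite sign. The sizes depended on the array left out, with ranges from -0.42 to -0.04 for Cdk1, -0.50 to -0.15 for Pbk, -0.45 to -0.10 for Mad2l1, 0.10 to 0.49 for Cenpa, 0.14 to 0.54 for Cenpf, 0.17 to 0.57 for Ckap2 and 0.05 to 0.41 for Kif2c. The value nearest 0 came without tetraploid replicate 3 for Cdk1, Pbk and Mad2l1, without tetraploid replicate 2 for Cenpa, Ckap2 and Kif2c, and without diploid replicate 2 for Cenpf. For the remaining 14, Mki67, Birc5 and Nusap1 among them, leaving out an array turned the sign. No member passed the test in any of these refits.

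**Figure D4:**
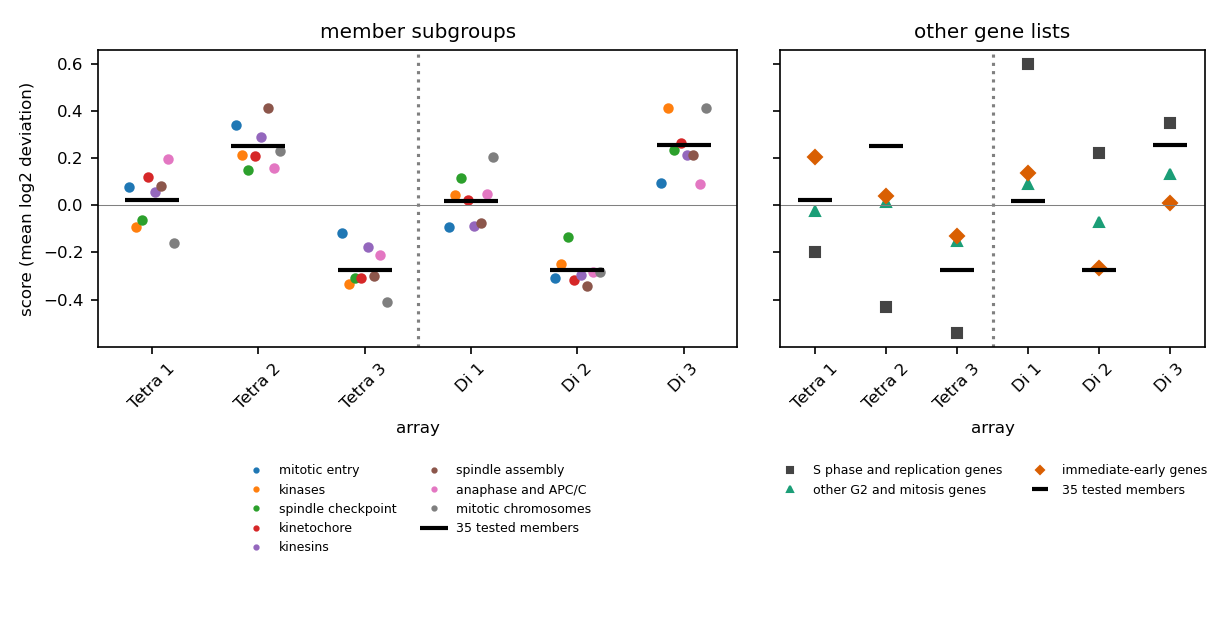
Score of each array (y, mean log2 deviation from the gene means) for the 8 subgroups of members (left, coloured points) and for 3 other gene lists (right), with the 35 tested members as black bars in both panels. Tetraploid arrays are left of diploid arrays. The subgroups follow the bars on the high and low arrays, while the S phase list separates the fractions.

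The subgroups shared the pattern. On tetraploid replicate 2 all 8 subgroup scores were above 0, from 0.15 for the checkpoint to 0.41 for spindle assembly, and on tetraploid replicate 3 all 8 were below 0, from -0.41 for mitotic chromosomes to -0.12 for mitotic entry. On diploid replicate 2 all 8 were below 0, from -0.34 for spindle assembly to -0.14 for the checkpoint, and on diploid replicate 3 all 8 were above 0, from 0.09 for anaphase to 0.42 for kinases. On replicate 1 of both fractions the subgroups lay on both sides of 0.

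Other genes of G2 and mitosis, taken from a list of 113 of which 81 were tested, leaned lower in tetraploid cells. They varied less between the arrays of a fraction than the members, with a median within-fraction SD of 0.18 against 0.31. That was still above the 0.12 of all genes tested, and 22 of 81 lay among the 10.0% of genes with the widest spread. Their score was -0.02, 0.02 and -0.15 on tetraploid replicates 1 to 3 and 0.09, -0.07 and 0.14 on diploid replicates 1 to 3. Within each fraction this was the array order of the member score. Of the 81, 26 had a higher and 55 a lower mean in tetraploid cells, with a median of -0.09, and 0 passed an adjusted p of 0.05. The difference of their score was -0.11, with a 95% interval from -0.33 to 0.12 that spans 0. Their fractions did not overlap for 15 genes lower and 0 higher in tetraploid cells, beside 7.08% and 5.22% of all genes. An unadjusted p under 0.05 was found for 11 lower and 0 higher, beside 3.85% and 2.32% of all genes. The smallest p-values belonged to the condensin subunit gene Ncaph at -0.52 ± 0.11 (SE), the cohesin protector sororin (Cdca5) at -0.76 ± 0.16, the inner kinetochore genes Cenph and Cenpk at -0.74 ± 0.16 and -0.57 ± 0.13, and Cdca7, a gene of chromatin remodelling, at -0.27 ± 0.08. Cenph, for example, had 5.63, 5.78 and 5.31 on tetraploid replicates 1 to 3, against 6.46, 6.03 and 6.46 on diploid replicates 1 to 3, so the fractions lay apart.

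The 30 tested genes of S phase and DNA replication separated the fractions where the G2 and mitosis genes did not. Their score was -0.20, -0.43 and -0.54 on tetraploid replicates 1 to 3 and 0.60, 0.22 and 0.35 on diploid replicates 1 to 3, so the highest tetraploid array lay below the lowest diploid array. Uhrf1, which guides maintenance DNA methylation, was picked as the gene of this list with the smallest p by limma. It had 7.24, 6.81 and 6.93 on the tetraploid arrays, against 8.93, 8.33 and 8.35 on the diploid arrays, an order of arrays unlike that of the G2 and mitosis genes. Its log2 difference of -1.55 was the largest fall of the list, whose median was -0.73. Tetraploid replicate 2 and diploid replicate 3, the high arrays for mitosis, were in the middle of their fractions for S phase. Tetraploid replicate 3 and diploid replicate 2, the low arrays for mitosis, were the lowest of their fractions for S phase too.

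On the low array of each fraction for mitosis, several other lists were at an end of their range within that fraction. With 3 arrays in a fraction, most places are at an end. The S phase and the other G2 and mitosis scores were lowest there. The lymphocyte marker sum was highest there, with 335, 348 and 351 on the tetraploid and 363, 375 and 359 on the diploid arrays. That sum includes markers under the filter. The lymphocyte score, over the 4 markers above the filter, was highest on tetraploid replicate 3 (0.03) but lowest on diploid replicate 2 (0.02). The neutrophil marker sum was likewise highest on tetraploid replicate 3 (236) and lowest on diploid replicate 2 (228). The score of 14 immediate-early genes, which respond within minutes to cell handling, was 0.21, 0.04 and -0.13 on tetraploid replicates 1 to 3 and 0.14, -0.27 and 0.01 on diploid replicates 1 to 3. It was lowest on the array of each fraction that was low for mitosis, and highest on replicate 1 of each, not on the arrays that were high for mitosis. Summed linear intensity of 12 measured liver endothelial markers was 1368, 1261 and 1487 on tetraploid replicates 1 to 3 and 1161, 1276 and 1164 on diploid replicates 1 to 3. That of 11 measured Kupffer cell and macrophage markers was 538, 464 and 551 against 515, 581 and 513. Both sums were highest on the low arrays for mitosis. For Kupffer cells and macrophages the lead in the tetraploid fraction was small, at 551 against 538. Not every marker followed its sum, and Stab2 was highest on tetraploid replicate 2 (7.30) and diploid replicate 3 (7.75), the high arrays for mitosis. Of the endothelial markers 10 of 12 listed were above the filter on dim genes, with Pecam1 and Tek below it, and of the Kupffer and macrophage markers 7 of 12, with Vsig4, Cd68, C1qb and C1qc below it. Of the 10 endothelial markers tested, 3 lay wholly higher in tetraploid cells and 0 wholly lower, beside 5.22% and 7.08% of all genes, and 4 had an unadjusted p under 0.05, all higher, beside 2.32% of all genes. The part of these cells and of cell handling in the array pattern was not tested.

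Markers of other cells were measured as well. For lymphocytes 4 of 13 listed genes were above the filter, and the summed intensity of the 11 measured was 335 to 351 on tetraploid and 359 to 375 on diploid arrays, with Cd3e, Cd3d, Cd8a and Ccl5 above the filter, at mean log2 intensities of 5.97, 5.31, 5.16 and 5.08, and Ptprc, the pan-leukocyte gene, below it at 4.23. For neutrophils 3 of 7 were above it, with sums of 225 to 236 and 228 to 248. For erythroid cells 3 of 12 were above it, with sums of 910 to 1344 and 901 to 1231 over 6 measured genes. Tfrc, Klf1 and Alas2 had mean log2 intensities of 9.39, 7.49 and 6.66. Hba-a1, Epb42 and Slc4a1 were below the filter, at 4.56, 4.55 and 4.62. Stellate cell and fibroblast markers, 7 of 11 above the filter, summed to 958 to 990 on tetraploid and 889 to 1003 on diploid arrays. Reln had a mean log2 intensity of 8.83 and Dcn 6.89, while Lrat, Col3a1 and Col1a1 were below the filter at 3.97, 4.74 and 4.92. Cholangiocyte markers, 2 of 7 above the filter, summed to 165 to 167 and 165 to 188. A level on this scale does not show by itself that such cells were present, and that was not tested. For hepatocytes 11 of 12 listed genes were above the filter, with sums of 292767 to 311849 on tetraploid and 289850 to 310751 on diploid arrays.

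Because most members moved together over the arrays, their promoters were read for the cell-cycle homology element bound by the MuvB complex and the box bound by NF-Y, both known in late cell cycle promoters. The motifs searched were TTTGAA and CCAAT, on both strands, in the 250 bases before and 50 bases after the annotated start of each gene in RefSeq (GRCm38.p6). A promoter was found for 35 of 41 genes, with a pair of starts for Bub3, and not for Foxm1, Spc24, Tpx2, Cdc25c, Pbk and Dlgap5. TTTGAA was present in 23 of 36 promoters (63.9%), against 12.1% of the 9633 promoters of genes tested and 17.9% of all 32851 promoters. CCAAT was present in 26 of 36 (72.2%), against 37.4% of both. Both motifs were present in 20 of 36 (55.6%), against 4.79% of promoters of genes tested. Within 50 bases of the start, TTTGAA was present in 19 of 36 (52.8%), against 3.06% of promoters of genes tested. A match of letters is a description and not a binding site, and member promoters had a median GC content of 58.5%, against 60.3% for genes tested.

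The 120 bases from 100 before to 20 after the start are shown for Ccnb2, Cenpf, Cdc20 and Ube2c, which averaged higher in tetraploid cells, for Top2a and Cdk1, which averaged lower, and for Nusap1, the member with the widest spread. Capitals mark TTTGAA and CCAAT or their complements TTCAAA and ATTGG. The windows lie at chr9:70421535-70421654 on the minus strand for Ccnb2, chr1:189688067-189688186 minus for Cenpf, chr4:118437324-118437443 minus for Cdc20, chr2:164769829-164769948 plus for Ube2c, chr11:99024170-99024289 minus for Top2a, chr10:69352893-69353012 minus for Cdk1 and chr2:119618198-119618317 plus for Nusap1. Each covers the promoter next to the start and the first bases of the transcript.
Ccnb2: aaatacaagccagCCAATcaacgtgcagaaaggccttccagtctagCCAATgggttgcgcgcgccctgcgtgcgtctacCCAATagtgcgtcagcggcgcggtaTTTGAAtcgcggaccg
Cenpf: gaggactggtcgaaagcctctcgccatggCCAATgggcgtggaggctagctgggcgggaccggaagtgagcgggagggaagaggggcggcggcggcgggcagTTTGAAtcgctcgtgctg
Cdc20: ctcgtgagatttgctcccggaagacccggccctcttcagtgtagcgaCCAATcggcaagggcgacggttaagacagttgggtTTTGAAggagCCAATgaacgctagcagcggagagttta
Ube2c: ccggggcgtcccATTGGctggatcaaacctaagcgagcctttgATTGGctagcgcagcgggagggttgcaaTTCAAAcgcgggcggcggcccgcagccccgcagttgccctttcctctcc
Top2a: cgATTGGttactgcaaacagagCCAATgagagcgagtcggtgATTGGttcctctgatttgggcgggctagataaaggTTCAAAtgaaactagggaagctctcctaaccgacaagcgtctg
Cdk1: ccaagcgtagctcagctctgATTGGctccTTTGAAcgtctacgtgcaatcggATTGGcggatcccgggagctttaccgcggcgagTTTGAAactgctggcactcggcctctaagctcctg
Nusap1: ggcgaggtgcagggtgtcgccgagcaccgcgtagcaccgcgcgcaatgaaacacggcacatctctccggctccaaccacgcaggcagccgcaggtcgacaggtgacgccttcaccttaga
Of these windows, Cdk1 held 2 matches of TTTGAA and 2 of CCAAT, Top2a 1 and 3, Ccnb2 1 and 3, and Nusap1 none of either, although Nusap1 followed the common array order. Nek2, Melk, Bub1, Mad2l1, Nuf2, Cenpe and Birc5 also followed it without TTTGAA in the bases searched. The other genes of that order with a promoter had TTTGAA. Outside the order, Bub1b, Bub3, Ndc80, Kif22, Kif2c and Cdc20 had TTTGAA, and Kif18a and Pttg1 did not. A link between the motif and the array order was not tested. Among the 30 tested members with a promoter, the 20 with TTTGAA were divided into 10 higher and 10 lower in tetraploid cells, with a median difference of -0.008, and the 10 without into 3 higher and 7 lower, with a median of -0.04.

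**Figure D5:**
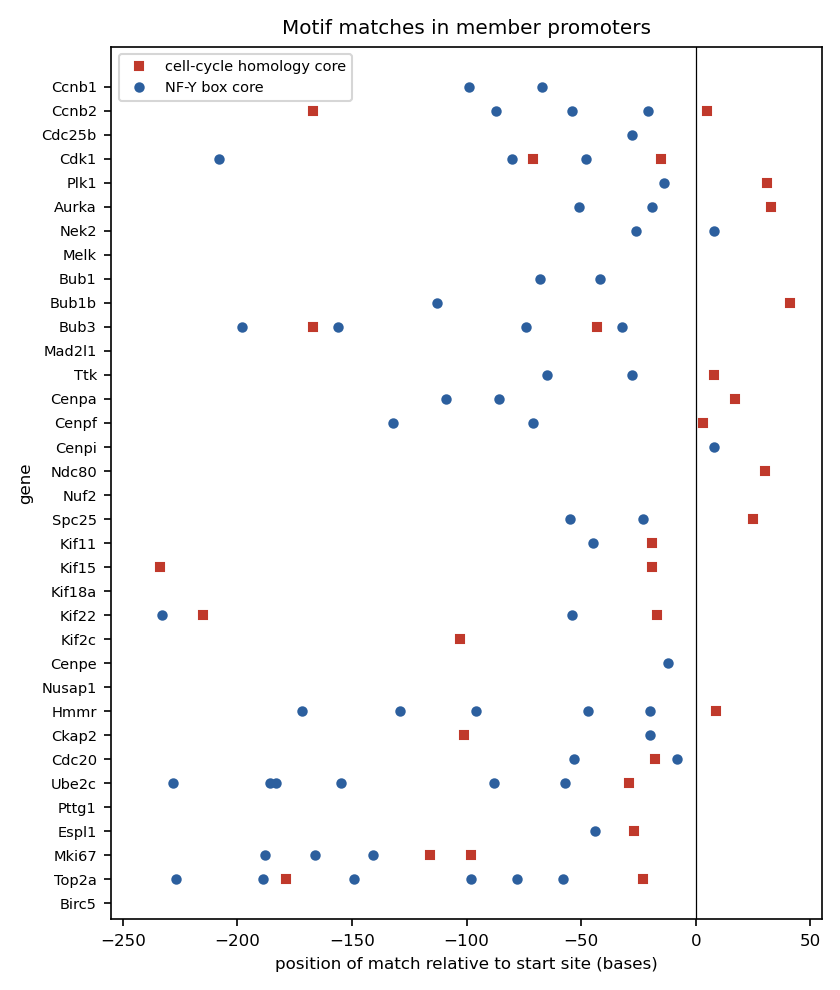
Position of each match (x, bases from the annotated start site, both strands) in the promoters of the 35 members that have one (rows), for the cell-cycle homology core (red squares) and the NF-Y box core (blue circles). Both starts of Bub3 share a row. Most matches of the homology core lie near the start, and the NF-Y box lies mostly upstream of it.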

How the data were processed

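The deposited values are linear intensities that the authors made with RMA, per the submitters' processing notes, by background correction, equalising of array distributions and a summary over probes. The RMA software is not given in the sources used here. Equalising removes any difference in total RNA per cell, so values are relative to the rest of an array. With 3 arrays per fraction, the median SE of a log2 difference was 0.095.

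Analysis used log2 values. Of 22690 probe sets, 64 were controls and not used, 20380 had 1 gene symbol, 691 several and 1555 none. The symbols were compared with RefSeq GRCm38.p6 by Entrez identifier (20351 matched, 0 changed). The dimmest 25% of genes, with means under 5.06, were not tested. Ploidy was the single factor in limma 3.58.1 (R 4.3.3, linear model and moderated test, both sides), with adjustment over all genes and a threshold of 0.05, and the fit was tested on simulated data. Of the 35 tested members, 6 rest on probe sets of a kind that can match several transcripts: Pbk, Bub3, Kif22, Kif2c, Cdc20 and Pttg1.

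The members and gene lists were chosen with earlier results of these data known. Array values are given for the 2 brightest tested genes of each subgroup, for Mki67, Top2a and Cdk1, and for the 5 genes with the smallest p or widest range. Nek2 and Ndc80 were chosen after their values were seen. Alternatives covered the filter, the probe set, normalization, variance model, array weights, the replicate block and each array left out.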

Additional observations from a re-analysis of the deposited data

How the results depend on the processing

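The count of members called was 0 under every alternative: no filter on dim genes, a stricter filter, the median over probe sets, re-centred or re-quantiled arrays, an intensity trend, array weights, the replicate block and each array left out. Over all genes, 0 were called except 9 under the replicate block and 0 to 1 when an array was left out, the 1 without tetraploid replicate 1. The labels do not say whether a shared replicate number marks a pair of samples. Deviations from the fraction means over all genes correlated at 0.57 for number 1 and at -0.20 for numbers 2 and 3. By these values 1 of 3 tetraploid samples, replicate 1, correlated best with its own number. Tetraploid replicate 2 correlated best with diploid replicate 3 (0.69) and tetraploid replicate 3 with diploid replicate 2 (0.38). The 3 deviations of a fraction sum to 0, which constrains these values, and no crossed pairing was fitted. Members with fractions that do not overlap numbered 1 with no filter (Cdc25b) and 1 to 7 when an array was left out, where 19.2% to 24.1% of all genes did so with fewer arrays. The member median ran from -0.16 without diploid replicate 2 to 0.05 without tetraploid replicate 3, and the score difference from -0.14 to 0.14 for the same arrays. Left-out arrays also turned the median to 0.04 without diploid replicate 3, where the score difference was 0.13. With the median over probe sets 4 members changed sign, and the difference was -0.004 for Foxm1 and -0.20 for Kif22. The cause of these shifts was not tested. Signal over background limits Cdc25b, Ndc80 and Kif18a, with mean log2 intensities of 4.75, 5.33 and 5.46.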

Other observations

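Among the 9260 genes tested that are no member, the 8 whose values were most like the member score over the 6 arrays were Ccna2, Nudt21, Ppp1r3c, Nhsl1, Grem1, Zfp93, Plin3 and Slc20a2. They were picked as the top of all these genes, so their likeness carries no test. Ccna2, cyclin A of S phase and G2, had log2 intensities of 9.16, 9.49 and 8.79 on tetraploid replicates 1 to 3, against 9.14, 8.73 and 9.50 on diploid replicates 1 to 3. Ppp1r3c, which targets a phosphatase to glycogen and is on none of the gene lists used here, had 10.36, 11.00 and 9.71 on tetraploid replicates 1 to 3, against 10.29, 9.71 and 11.02 on diploid replicates 1 to 3. Its range of 1.31 lay below those of Ccnb2 and Cenpe, at 1.40 and 1.35, and above those of the other tested members, and its difference between the fractions was 0.01 ± 0.39 (SE, n = 3 per fraction). Plin3, a lipid droplet protein gene, ranged over 0.58. Nudt21, of messenger RNA 3' end processing, ranged over 0.27. What these genes share was not tested.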
